A study of Mus musculus with 6 samples.

Results

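The TRIM family was followed in CD4+CD62L- T cells sorted from the lymph nodes of Dicer KO and Dicer WT mice. TRIM proteins are built from a RING domain, 1 or more B-box domains and a coiled coil, followed in most members by a domain that chooses the target. The RING domain lets many of them act as E3 ligases, enzymes that attach ubiquitin to a chosen protein together with an E1 and an E2 enzyme. Many TRIM genes are induced by interferon and act in antiviral defence or in the signalling that follows sensing of foreign RNA and DNA, while others silence chromatin, bind microtubules or serve muscle. Members were all genes whose array row carries a single annotated symbol made of Trim, a number and at most 1 letter. The rule found 58 genes on 58 rows, among 19935 genes measured.

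The 3 Dicer KO samples came from Dicer lox/lox animals positive for CD4Cre, a Cre recombinase that the Cd4 promoter switches on during T cell development. The 3 Dicer WT samples came from Dicer lox/lox animals without CD4Cre, so both groups carry the floxed alleles and a Dicer KO sample also differs by the presence of Cre. Dicer is the enzyme that trims microRNA precursors to their mature, active form. The cells were not treated, the series' design text calls the samples of each genotype biological replicates, and the labels used here state neither the age nor the strain of the animals. RNA was measured on Affymetrix MoGene 1.0 ST arrays.

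Each value below is a deposited log value, read as log2, from which the median of the 6 arrays had been taken off row by row. It tells how far an array lies from that median and gives no expression level, so levels of different genes cannot be compared. Because of the centring, the lowest Dicer KO value and the highest Dicer WT value lie equally far from 0 where all Dicer KO arrays lie above all Dicer WT arrays. No pair of arrays held identical values. In a principal component analysis over all genes the genotypes parted on the first component (55.4% of the variance). On the second (21.2%) Dicer KO 3 and Dicer WT 3 were the lowest, at -10.5 and -14.1. Dicer KO 2 lay between at -1.89, and Dicer KO 1, Dicer WT 1 and Dicer WT 2 stood at 8.05 to 10.2. Of 13 measured CD4 T cell markers, 12 belonged to the higher of the level classes described further on, against 3 of 12 CD8 T and NK cell markers, 1 of 15 B cell markers and 0 of 16 myeloid and dendritic cell markers. The row of Dicer1 stood at 0.21, -0.020 and -0.087 on the Dicer KO arrays and 0.12, 0.020 and -0.095 on the Dicer WT arrays. The genotypes overlapped on it, with a difference of 0.02 ± 0.09 (SE, n = 3 per genotype) and a limma adjusted p of 0.949. No source used here tells which exons its probes cover, so the row does not check the deletion.

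Among the TRIM genes, 8 were higher in Dicer KO cells and 0 were lower. Trim14, Trim59, Trim21, Trim30a, Trim56, Trim34a, Trim25 and Trim44 passed the limma test at an adjusted p under 0.05 and are named the called genes, with log2 differences from 0.29 to 0.64, or 1.22-fold to 1.56-fold. The 8 make up 13.8% of the family, beside 5.94% of all genes called higher, 2.79% called lower and 8.73% called in either direction. The median difference of the 58 genes was 0.05, beside -0.01 over all genes, and 36 members had a positive and 22 a negative difference. At an unadjusted p under 0.05 there were 9 higher and 2 lower members. The share of all genes at that threshold is not given here, so these counts have no background beside them. No TRIM gene reached 2-fold, which 93 of the genes called higher did, and only Trim14 was called and reached 1.5-fold. A difference in bulk RNA cannot tell a change within each cell from a change in the share of cells that hold the transcript. B cell markers, of which 1 of 15 was called higher, had a median difference of 0.22, and their values by array close the account.

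The calls depended on single arrays. All 8 differences stayed positive in each of the 15 alternative fits in which the gene was measured, between 0.26 and 0.76. Neither leaving out nor weighting arrays could turn them negative, since every called gene had all Dicer KO arrays above all Dicer WT arrays. The fits with a replicate block, a robust variance prior, another row choice or the higher level class alone left each difference as it was. The number of TRIM genes called higher was 5 without Dicer KO 1, 1 without Dicer KO 2 and 6 without Dicer KO 3. It was 3 without Dicer WT 1, 2 without Dicer WT 2 and 4 without Dicer WT 3. The share of all genes called higher was also lower in each of these fits, at 4.79% without Dicer KO 1, 2.77% without Dicer KO 2, 5.01% without Dicer KO 3, 3.18% without Dicer WT 1, 3.83% without Dicer WT 2 and 5.37% without Dicer WT 3. Trim14 alone was called in all 6 of these fits.

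**Figure D1:**
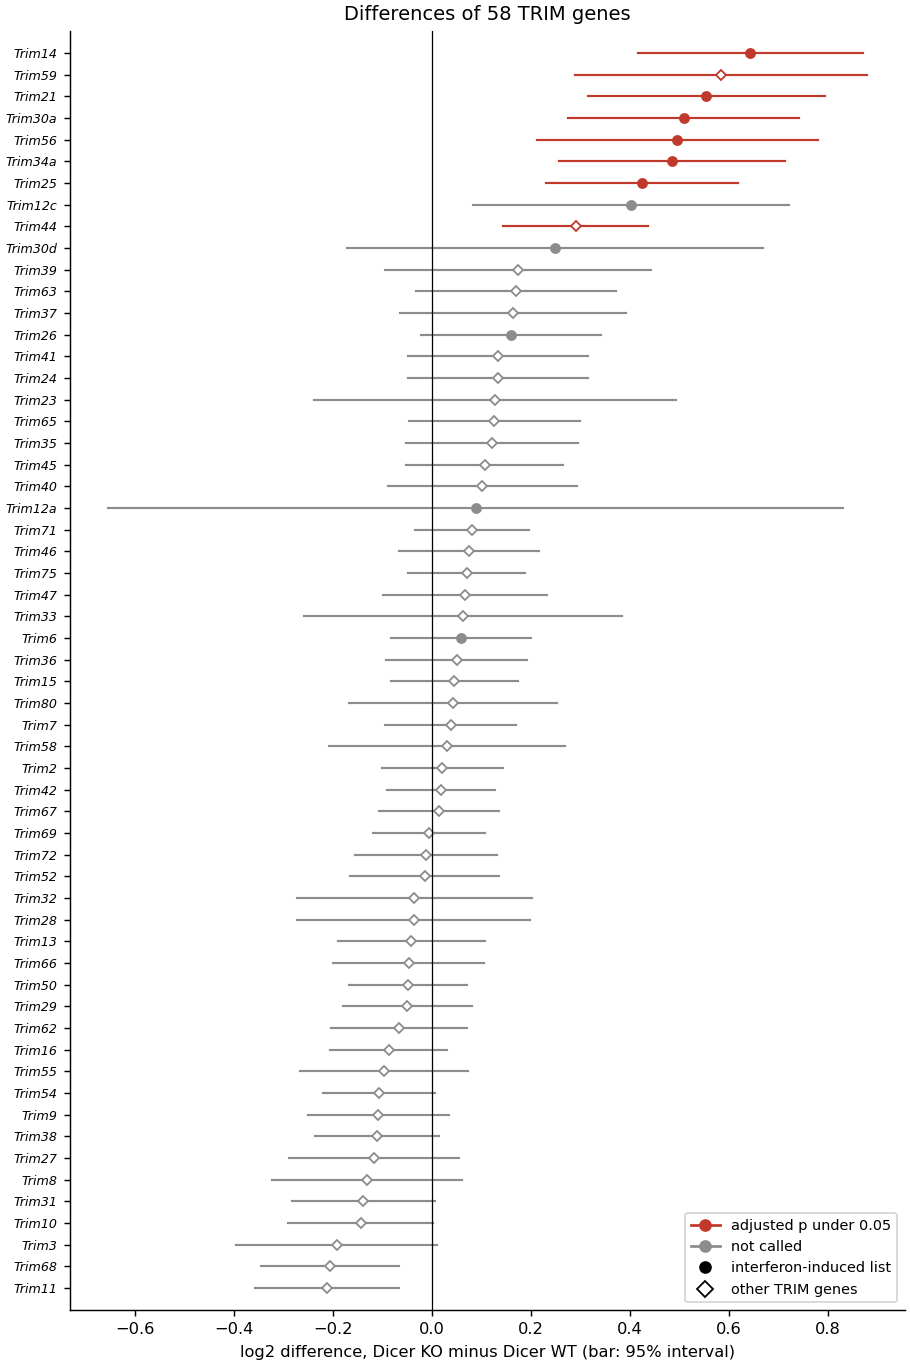
Log2 difference, Dicer KO minus Dicer WT, (horizontal axis) for each of the 58 TRIM genes (vertical axis, highest at the top), with bars for the 95% interval of the limma fit. Red marks an adjusted p under 0.05, filled circles the interferon-induced list and open diamonds the other TRIM genes. The 8 called genes lie between 0.29 and 0.64, and all 11 genes of the interferon-induced list lie above 0.

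Promoters are shown for Trim21, Trim34a and Trim30a because they are the called members whose RefSeq window holds the core of the interferon-stimulated response element (ISRE), a sequence found in the promoters of many genes that respond to type I interferon. The core was searched as GAAANNGAAA on both strands. Each window runs from 250 bases before to 50 bases after the annotated start, 5′ to 3′ on the gene's strand, in build GRCm38.p6, and the core is in capitals. Trim21 lies on the minus strand (chr7:102565433-102565732) and holds 2 overlapping cores on the gene's own strand. Trim34a lies on the plus strand (chr7:104244207-104244506) and Trim30a on the minus strand (chr7:104465144-104465443), each with 1 core read on the opposite strand.
Trim21: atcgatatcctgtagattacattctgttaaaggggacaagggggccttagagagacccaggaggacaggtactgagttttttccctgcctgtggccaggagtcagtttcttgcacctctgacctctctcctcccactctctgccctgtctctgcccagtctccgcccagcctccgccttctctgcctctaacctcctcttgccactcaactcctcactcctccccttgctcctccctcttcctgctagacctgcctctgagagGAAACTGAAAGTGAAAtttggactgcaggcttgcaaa
Trim34a: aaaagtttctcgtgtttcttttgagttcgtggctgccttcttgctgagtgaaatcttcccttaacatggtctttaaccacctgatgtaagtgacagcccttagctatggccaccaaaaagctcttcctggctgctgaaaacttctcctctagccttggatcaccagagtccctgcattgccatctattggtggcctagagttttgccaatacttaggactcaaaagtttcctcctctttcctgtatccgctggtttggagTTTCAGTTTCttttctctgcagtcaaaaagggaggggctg
Trim30a: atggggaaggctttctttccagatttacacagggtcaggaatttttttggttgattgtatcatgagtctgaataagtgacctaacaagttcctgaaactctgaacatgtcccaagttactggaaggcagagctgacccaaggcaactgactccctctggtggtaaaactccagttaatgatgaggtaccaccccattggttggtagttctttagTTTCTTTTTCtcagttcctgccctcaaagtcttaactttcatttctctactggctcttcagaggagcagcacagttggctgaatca
The Trim21 cores begin at bases 14 and 20 counted from 1 at the start, and that of Trim34a at base 11. The Trim30a core begins 36 bases before the start. RefSeq gives Trim30a a second start, whose window (chr7:104446076-104446375, minus strand) holds 1 core that begins at base 3.

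RefSeq windows matched 46 of the 58 TRIM genes, and 8 of these, or 17.4%, held the core. Across all RefSeq windows given, 3.44% of 32851 windows and 3.99% of 27025 genes held it. Among called genes 3 of the 7 with a window held it, and among the other TRIM genes 5 of 39 did. Within the interferon-induced list the count was 7 of 10, against 1 of the remaining 36, which was Trim2. A second core of interferon signalling, the gamma-activated sequence searched as TTCNNNGAA, lay in a window of 5 of the 46 matched TRIM genes, or 10.9%, beside 9.55% of all genes.

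The cores of genes in the Trim12 and Trim30 groups are shown with the 10 bases on each side because the neighbours within each group share the same core, and only Trim30a of the 4 was called. Each is written on the gene's strand, the minus strand, with the core in capitals, and each core reads as the motif on the opposite strand.
Trim12a: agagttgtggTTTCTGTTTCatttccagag
Trim12c: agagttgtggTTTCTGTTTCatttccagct
Trim30a: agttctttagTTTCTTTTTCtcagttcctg
Trim30d: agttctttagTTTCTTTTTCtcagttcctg
The windows lie at chr7:104315446-104315745 for Trim12a, chr7:104353300-104353599 for Trim12c, chr7:104465144-104465443 for Trim30a and chr7:104507800-104508099 for Trim30d. Differences of Dicer KO minus Dicer WT on the log2 scale were 0.088 for Trim12a and 0.40 for Trim12c. They were 0.51 for Trim30a and 0.25 for Trim30d. A match of these letters is a description of the window and does not show that a factor was bound.

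The interferon-induced TRIM genes carried 6 of the 8 calls. Of 15 listed genes, 11 had a row of their own, and of these 6 were called higher and 0 lower. Over all genes 5.94% were called higher and 2.79% lower. All 11 differences of the list were positive, from 0.06 to 0.64. The difference of Trim12a alone among them turned negative with 1 array left out, to -0.06 without Dicer KO 1 and -0.30 without Dicer WT 3. Their median was 0.42, beside 0.02 for the other 47 TRIM genes and -0.01 for all genes. Those 47 held 25 positive and 22 negative differences, with Trim38 among the negative at -0.11. The list was written with earlier results of these data known, so its split from the other genes was not tested. The list's median on the arrays was 0.23, 0.16 and 0.11 in Dicer KO 1 to 3, against -0.12, -0.25 and -0.19 in Dicer WT 1 to 3. With 1 array left out, the number called in the list was 1 without Dicer KO 2, 2 without Dicer WT 1 and 2 without Dicer WT 2, and 4 or 5 without each of the other 3 arrays. The shares of all genes called higher were 2.77%, 3.18% and 3.83% in the first 3 of these fits, and 4.79% to 5.37% in the others. With the higher level class tested alone, 5 of the list's 6 genes in that class were called higher, beside 25.5% of all its genes.

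Trim14 has no RING domain and in human cells acts at mitochondria as an adaptor of the antiviral protein MAVS. It stood at 0.19, 0.29 and 0.23 on the Dicer KO arrays and -0.54, -0.50 and -0.19 on the Dicer WT arrays. The Dicer KO arrays lay close together and above every Dicer WT array, of which Dicer WT 3 was the nearest. The difference was 0.64 ± 0.10 (SE, n = 3 per genotype), 1.56-fold, with a 95% interval of 0.42 to 0.87 and a limma adjusted p of 0.00902. With 1 array left out the adjusted p ran from 0.00186 to 0.0495.

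Trim21, also known as Ro52, is a receptor in the cytosol for antibodies that enter the cell on a virus, and it marks what they coat for the proteasome. It stood at 0.23, 0.16 and 0.40 on the Dicer KO arrays and -0.23, -0.49 and -0.16 on the Dicer WT arrays. The genotypes did not overlap, and Dicer WT 2 was the lowest array. The difference was 0.55 ± 0.10 (SE, n = 3 per genotype), 1.47-fold, with an adjusted p of 0.0186. The call was lost without Dicer KO 2 and without Dicer WT 1, where the highest adjusted p was 0.0587.

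Trim25 is known from human cells for attaching ubiquitin to the RNA sensor RIG-I, the product of Ddx58. Its values were 0.096, 0.23 and 0.18 on the Dicer KO arrays and -0.29, -0.39 and -0.096 on the Dicer WT arrays. Dicer KO 1 was the lowest of its genotype and Dicer WT 3 the highest of its own, and they did not overlap. The difference of 0.42 ± 0.08 (SE, n = 3 per genotype) was 1.34-fold with an adjusted p of 0.0223. Leaving out Dicer KO 2, Dicer KO 3, Dicer WT 1 or Dicer WT 2 ended the call, and the adjusted p over all 6 such fits ran from 0.00888 to 0.0981.

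Trim56 promotes signalling through the DNA sensing adaptor STING in human and mouse cells. It stood at 0.43, 0.14 and 0.082 on the Dicer KO arrays and -0.30, -0.44 and -0.082 on the Dicer WT arrays. Dicer KO 1 was well above Dicer KO 2 and Dicer KO 3, and Dicer WT 3 lay nearest to the Dicer KO arrays. The difference was 0.50 ± 0.12 (SE, n = 3 per genotype), 1.41-fold, and its adjusted p of 0.0494 was the highest among the called genes. It remained called with 1 array left out in the fit without Dicer WT 3 only, and the adjusted p reached 0.146.

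Trim30a is a mouse gene whose product curbs Toll-like receptor signalling by removing TAB2 and TAB3. Its values were 0.50, 0.23 and 0.13 on the Dicer KO arrays and -0.13, -0.25 and -0.29 on the Dicer WT arrays. Dicer KO 1 was the highest array, and the 3 Dicer WT arrays lay within a narrow span below all Dicer KO arrays. The difference was 0.51 ± 0.10 (SE, n = 3 per genotype), 1.42-fold, with an adjusted p of 0.0231. It was lost without Dicer KO 2 or without any single Dicer WT array, up to an adjusted p of 0.0821.

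Trim34a belongs to the interferon-induced group that lies beside Trim5. It stood at 0.43, 0.17 and 0.12 on the Dicer KO arrays and -0.12, -0.31 and -0.31 on the Dicer WT arrays. Dicer KO 1 was again the highest array, and Dicer WT 1 was the nearest of its genotype to the Dicer KO arrays. The difference was 0.49 ± 0.10 (SE, n = 3 per genotype), 1.40-fold, with an adjusted p of 0.0250. The call ended without Dicer KO 2, Dicer WT 2 or Dicer WT 3, up to an adjusted p of 0.0895.

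The other 5 interferon-induced members were not called. Trim12c, a mouse relative of the primate retrovirus restriction factor TRIM5, stood at 0.39, 0.19 and 0.044 on the Dicer KO arrays and -0.044, -0.063 and -0.47 on the Dicer WT arrays. All Dicer KO arrays lay above all Dicer WT arrays, and Dicer WT 3 was far below the other 2. The difference was 0.40 ± 0.14 (SE, n = 3 per genotype) with a 95% interval of 0.08 to 0.72 and an adjusted p of 0.132. Trim30d, of the same mouse group as Trim30a, stood at 0.56, 0.11 and -0.16 on the Dicer KO arrays and 0.092, -0.092 and -0.24 on the Dicer WT arrays. The genotypes overlapped, Dicer KO 1 was far above the rest, and the difference was 0.25 ± 0.18 (SE, n = 3 per genotype) with an adjusted p of 0.513. Trim26 differed by 0.16 ± 0.08 and Trim6 by 0.06 ± 0.06 (SE, n = 3 per genotype), with overlapping genotypes and limma adjusted p-values of 0.302 for Trim26 and 0.676 for Trim6.

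Trim12a had the largest SE of the 58 genes. It stood at 0.16, -0.15 and -0.40 on the Dicer KO arrays and 0.18, 0.15 and -0.99 on the Dicer WT arrays. The number 3 array was the lowest of each genotype, and the standard deviation within genotype was 0.28 for Dicer KO and 0.67 for Dicer WT (n = 3 each). The difference was 0.09 ± 0.32 (SE, n = 3 per genotype), with a 95% interval of -0.66 to 0.83 that spans changes in both directions and an adjusted p of 0.928.

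**Figure D2:**
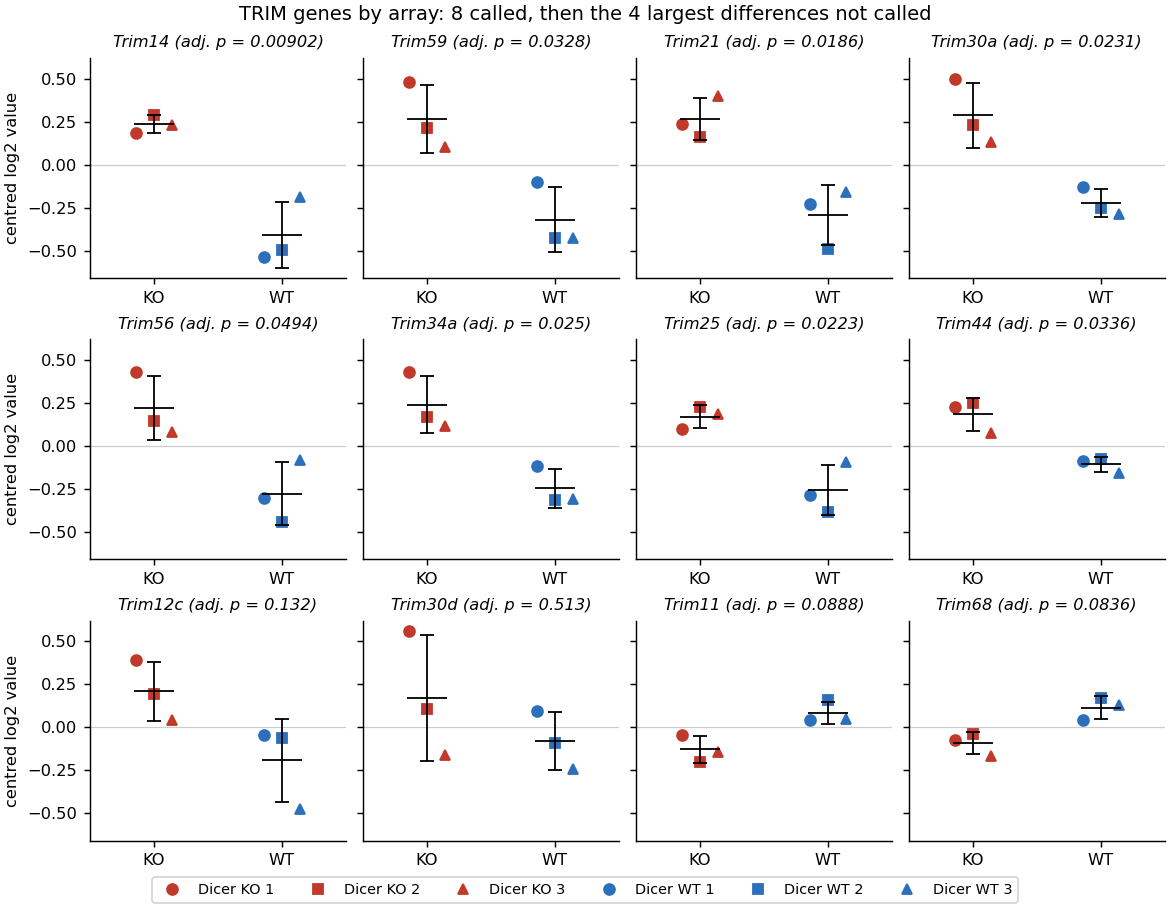
Centred log2 values (vertical axis, shared by all panels) on the 3 Dicer KO arrays (left in each panel, red) and the 3 Dicer WT arrays (right, blue) for 12 TRIM genes, with symbols for replicates 1 to 3 and black bars for the mean and SD. The first 8 panels are the called genes, in which every Dicer KO array lies above every Dicer WT array, and the last 4 are Trim12c, Trim30d, Trim11 and Trim68, with adjusted p-values from 0.0836 to 0.513.

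The remaining calls were Trim59 and Trim44, outside the interferon-induced list. There 2 of 47 members, or 4.26%, were called higher and 0 lower, beside 5.94% and 2.79% of all genes. Trim59 is anchored in membranes by its end and is known to be raised in many tumours. It stood at 0.48, 0.21 and 0.10 on the Dicer KO arrays and -0.10, -0.43 and -0.43 on the Dicer WT arrays. Dicer KO 1 was the highest array, Dicer WT 1 lay nearest to the Dicer KO arrays, and the genotypes did not overlap. The difference was 0.58 ± 0.13 (SE, n = 3 per genotype), just under 1.5-fold, with a 95% interval of 0.29 to 0.88 and a limma adjusted p of 0.0328. The call was lost without Dicer KO 1, Dicer KO 2, Dicer WT 2 or Dicer WT 3, up to an adjusted p of 0.109.

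Trim44 lacks a RING domain, carries a ubiquitin protease-like zinc finger and stabilises MAVS in human cells. Its values were 0.23, 0.25 and 0.074 on the Dicer KO arrays and -0.090, -0.074 and -0.16 on the Dicer WT arrays. The Dicer WT arrays lay close together below all Dicer KO arrays, of which Dicer KO 3 was the lowest. The difference of 0.29 ± 0.06 (SE, n = 3 per genotype), 1.22-fold, was the smallest among the called genes, with an adjusted p of 0.0336. It was called in the fit without Dicer KO 3 and in none of the other 5 with 1 array left out, up to an adjusted p of 0.127.

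**Figure D3:**
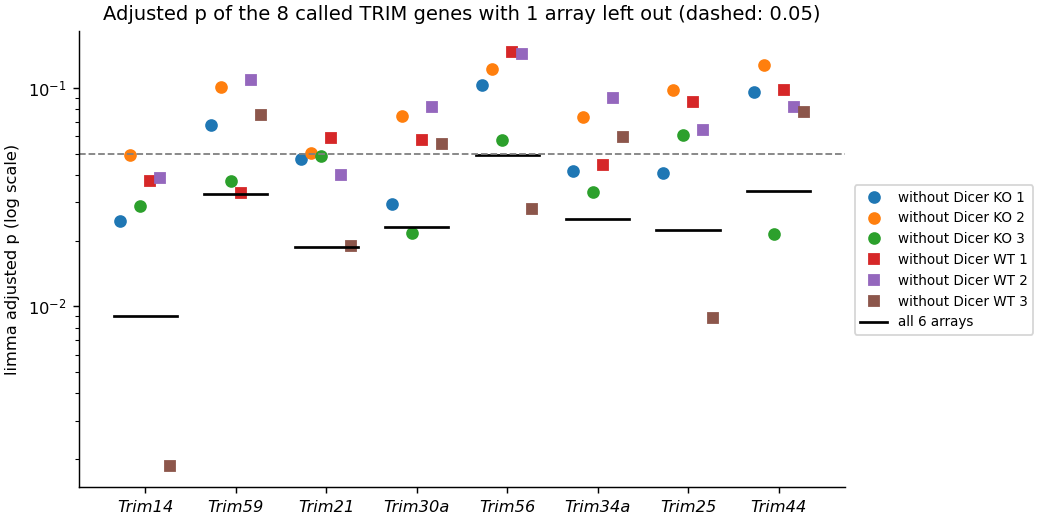
Limma adjusted p (vertical axis, log scale) of the 8 called TRIM genes (horizontal axis) with all 6 arrays (black line) and with 1 array left out (coloured symbols, circles for a Dicer KO and squares for a Dicer WT array). The dashed line marks 0.05, and only Trim14, at 0.00186 to 0.0495, stays below it in all 6 fits.

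Across the 8 called genes the order of arrays was uneven. Dicer KO 1 was the highest Dicer KO array for 4 of them, Dicer KO 2 for 3 and Dicer KO 3 for 1. Dicer WT 2 was the lowest Dicer WT array for 5, Dicer WT 3 for 2 and Dicer WT 1 for 1. Every called gene had all 3 Dicer KO arrays above all 3 Dicer WT arrays. In the whole family 12 members had that arrangement, beside 13.5% of all genes, and 6 had the opposite one, beside 12.7% of all genes.

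The 2 most negative TRIM differences belonged to Trim11 and Trim68, and neither passed the test. Trim11 stood at -0.044, -0.20 and -0.14 on the Dicer KO arrays and 0.044, 0.16 and 0.046 on the Dicer WT arrays. Its Dicer KO arrays all lay below its Dicer WT arrays, with a difference of -0.21 ± 0.06 (SE, n = 3 per genotype) and an adjusted p of 0.0888. Trim68, which lies near Trim21 on chromosome 7, stood at -0.073, -0.040 and -0.17 on the Dicer KO arrays and 0.040, 0.17 and 0.13 on the Dicer WT arrays. It showed the same arrangement, with a difference of -0.21 ± 0.06 (SE, n = 3 per genotype) and an adjusted p of 0.0836. The other members with all Dicer KO arrays below all Dicer WT arrays were Trim16, Trim31, Trim38 and Trim54, listed after their values were seen, with differences from -0.14 to -0.088 and adjusted p-values from 0.255 to 0.395.

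None of the 4 chromatin TRIM genes, the TIF1 group, was called, and their median difference was 0.01. Trim28, or KAP1, is the corepressor that KRAB zinc finger proteins bring to retroelements. It stood at -0.021, 0.021 and 0.079 on the Dicer KO arrays and -0.077, -0.028 and 0.30 on the Dicer WT arrays. Dicer WT 3 was the highest of all arrays and the genotypes overlapped, with a difference of -0.04 ± 0.10 (SE, n = 3 per genotype) and an adjusted p of 0.898. Trim24 reads histone marks and binds nuclear receptors, and it stood at 0.19, 0.13 and -0.047 on the Dicer KO arrays and -0.033, 0.033 and -0.13 on the Dicer WT arrays. Its genotypes overlapped, with a difference of 0.13 ± 0.08 (SE, n = 3 per genotype) and an adjusted p of 0.398. Trim33, or TIF1γ, acts on SMAD4 in TGF-beta signalling, and it stood at 0.21, 0.0087 and -0.22 on the Dicer KO arrays and -0.0087, 0.11 and -0.30 on the Dicer WT arrays. The number 3 array was the lowest of each genotype, and the difference was 0.06 ± 0.14 (SE, n = 3 per genotype) with an adjusted p of 0.870. Trim66, a testis-enriched member of the group, differed by -0.05 ± 0.06 with an adjusted p of 0.776.

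The 4 members with an NHL domain bear on RNA and on microRNAs, and none was called. Trim71 is the mammalian form of the worm gene lin-41, a classic target of the microRNA let-7. It stood at 0.061, 0.10 and 0.006 on the Dicer KO arrays and -0.052, -0.006 and -0.019 on the Dicer WT arrays. The genotypes did not overlap, but the difference was only 0.08 ± 0.05 (SE, n = 3 per genotype) with a limma adjusted p of 0.419. The Trim71 row lay below the higher level class, so it cannot tell an unchanged transcript from one hardly detected. Trim32 binds Argonaute in mouse neural progenitors and raises the activity of some microRNAs, and it stood at -0.14, 0.16 and -0.076 on the Dicer KO arrays and 0.076, -0.14 and 0.11 on the Dicer WT arrays. Its genotypes overlapped, with a difference of -0.04 ± 0.10 (SE, n = 3 per genotype) and an adjusted p of 0.903. The other members of the group were Trim2, at a difference of 0.02 ± 0.05, and Trim3, at -0.19 ± 0.09, with adjusted p-values of 0.888 for Trim2 and 0.261 for Trim3.

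The other subfamilies held 1 call between them, that of Trim59. The 4 genes of the microtubule-binding group (Trim9, Trim36, Trim46 and Trim67) had differences from -0.11 to 0.07, and 0 were called. The 4 muscle genes, the muscle ring fingers Trim54, Trim55 and Trim63 and the membrane repair gene Trim72, had differences from -0.11 to 0.17, and 0 were called. Of the 3 membrane or vesicle genes, Trim13, an ER ligase, differed by -0.04 ± 0.06 and Trim23, which carries an ARF-type GTPase domain, by 0.13 ± 0.16, with limma adjusted p-values of 0.797 for Trim13 and 0.736 for Trim23. Of the 28 TRIM genes on none of these lists 1, Trim44, was called (3.57%), beside 5.94% of all genes called higher. The 28 genes had a median difference of 0.02, with 15 positive and 13 negative values from -0.21 to 0.29. Among them Trim27, which restrains CD4 T cells through a PI3K of class II, stood at -0.17, 0.048 and -0.10 on the Dicer KO arrays and -0.031, 0.031 and 0.13 on the Dicer WT arrays. Its genotypes overlapped, with a difference of -0.12 ± 0.07 (SE, n = 3 per genotype) and an adjusted p of 0.443.

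The intervals bound the measured differences of the other TRIM genes. For 47 of the 50 TRIM genes that were not called, the whole 95% interval of the difference lay within 1.5-fold in either direction. The 3 exceptions were Trim12a, Trim12c and Trim30d. All 50 had differences from -0.21 to 0.40, with 28 positive and 22 negative. Of the 50, 45 lay below the higher of the level classes described next. The values give no level, so a narrow interval cannot tell a small change from a transcript that is hardly detected.

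The stored numbers carry a coarse trace of level, since their binary step grows with the size of a value before centring. Values that all sit on the coarser step point to a row at a log value of 8 or more, and 11 of the 58 TRIM genes were in that class, or 19.0%, beside 16.5% of all genes. The class held 6 of the 8 called genes, all but Trim34a and Trim59. The median difference of its 11 TRIM genes was 0.29, beside 0.10 over all 3283 genes of the class. When only that class was tested, 6 of its 11 TRIM genes and 25.5% of all its genes were called higher. The 47 TRIM genes below it had a median of 0.03 and 2 calls. A row must reach the class on all 6 arrays, so the class is not independent of the difference between genotypes, and a row's class can be wrong.

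On mouse chromosome 7 the TRIM genes include a run of related neighbours, and the array names its members only in part. In the order of the RefSeq table of GRCm38.p6, Trim6, Trim34a, Trim5, Trim12a, Trim34b and Trim12c follow one another with no other coding gene between them. After 1 coding gene come Trim30b, Trim30c, Trim30a and Trim30d. Trim5, Trim34b, Trim30b and Trim30c have no row of their own here, so the values of their near copies Trim12a, Trim12c, Trim34a, Trim30a and Trim30d are uncertain for the single gene. Of the 12 TRIM genes measured on chromosome 7, 3 were called higher (Trim21, Trim34a and Trim30a) and 0 lower, with a median difference of 0.07. Trim21 and Trim68, separated by 7 coding genes, differed by 0.55 and -0.21, and within the run Trim34a differed by 0.49 and its neighbour Trim6 by 0.059. The 10 TRIM genes of chromosome 11 held 1 call, Trim25, with a median of 0.05, and the 6 of chromosome 17, in and near the MHC, held 0 with a median of 0.07. Over all genes 5.94% were called higher. No share for all genes of a single chromosome is given here, so these counts say nothing about location.

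**Figure D4:**
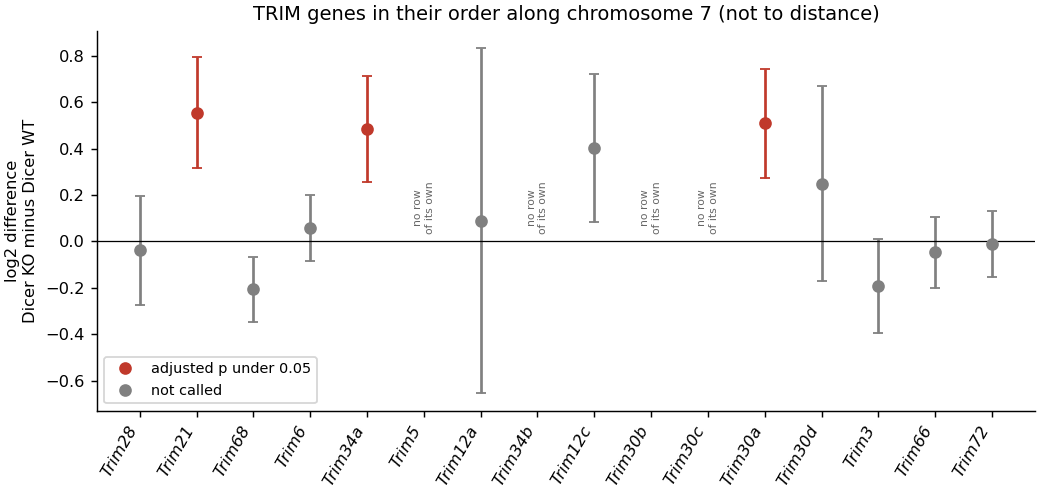
Log2 difference, Dicer KO minus Dicer WT, (vertical axis, bars for the 95% interval) of the TRIM genes of chromosome 7 in their order (horizontal axis, not to distance), with called genes in red. Trim21, Trim34a and Trim30a stand at 0.55, 0.49 and 0.51, while Trim12a between them has an interval from -0.66 to 0.83.

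TRIM proteins that go by other symbols were measured for all 10 listed genes. Of these, 1 was called higher, beside 5.94% of all genes, and 0 lower, with a median difference of -0.06. The called gene was Pml, the interferon-induced organiser of PML nuclear bodies, at 0.14, 0.099 and 0.093 on the Dicer KO arrays and -0.37, -0.50 and -0.093 on the Dicer WT arrays. The genotypes did not overlap, Dicer WT 3 lay nearest to the Dicer KO arrays, and the difference was 0.43 ± 0.10 (SE, n = 3 per genotype), 1.35-fold, with a limma adjusted p of 0.0433. It kept the call with 1 array left out only in the fit without Dicer WT 3, and the adjusted p reached 0.139. Mid1 and Mid2, which bind microtubules, differed by 0.12 ± 0.16 and -0.08 ± 0.05, and Mefv, the pyrin of the inflammasome, by 0.01 ± 0.05 (SE, n = 3 per genotype), with adjusted p-values of 0.779, 0.470 and 0.967 in that order.

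The enzymes that hand ubiquitin to TRIM ligases were also higher in part. Of 15 measured E1 and E2 genes, 5 were called higher and 0 lower, with a median difference of 0.24. Over all genes 5.94% were called higher and 2.79% lower. The higher level class held 7 of the 15. With that class tested alone, 4 of the 7 were called higher, beside 25.5% of all its genes. Ube2d3, of the E2 family most RING ligases can use, differed by 0.58 ± 0.09 (SE, n = 3 per genotype) with a limma adjusted p of 0.0112. Ube2w, which attaches the first ubiquitin to the N-terminus of TRIM21 and TRIM5 proteins, differed by 0.44 ± 0.06 (SE, n = 3 per genotype) with an adjusted p of 0.00790. Without Dicer KO 2 and without Dicer WT 1 the number called was 3.

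Of 20 measured genes of the RNA and DNA sensing pathways in which TRIM ligases act, 7 were called higher and 0 lower, with a median difference of 0.20. Over all genes 5.94% were called higher. With the higher level class tested alone, 5 of 8 sensing genes were called higher, beside 25.5% of all its genes. Ddx58, which encodes the TRIM25 target RIG-I, differed by 0.72 ± 0.07 (SE, n = 3 per genotype) with a limma adjusted p of 0.00227. Sting1, whose product TRIM56 acts on, differed by 0.96 ± 0.10 (SE, n = 3 per genotype) with an adjusted p of 0.00247. Ddx58 and Sting1 remained called with any 1 array left out, and the number called in the list was 5 to 7.

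Interferon receptor signalling held 7 calls higher and 0 lower among 13 measured genes, beside 5.94% of all genes called higher. Its median was 0.40, and the receptor chain Ifnar1 differed by 0.90 ± 0.07 (SE, n = 3 per genotype). The count was 4 without Dicer KO 2, Dicer KO 3 or Dicer WT 1. With the higher level class tested alone it was 5 of 8, beside 25.5% of all genes of that class. Interferon-stimulated genes outside the TRIM family held 26 calls higher and 0 lower among 36 measured, with a median of 1.01. Their medians on the arrays were 0.59, 0.35 and 0.32 in Dicer KO 1 to 3, against -0.49, -0.76 and -0.29 in Dicer WT 1 to 3. The count was 17 without Dicer KO 2 and 16 without Dicer WT 1. With the higher level class tested alone it was 15 of 15. The interferon-induced TRIM genes and these genes had Dicer KO 1 as their highest array and Dicer WT 2 as their lowest, by list median. Dicer WT 3 was the highest of its genotype for the interferon-stimulated genes, and Dicer WT 1 was so for the TRIM genes.

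**Figure D5:**
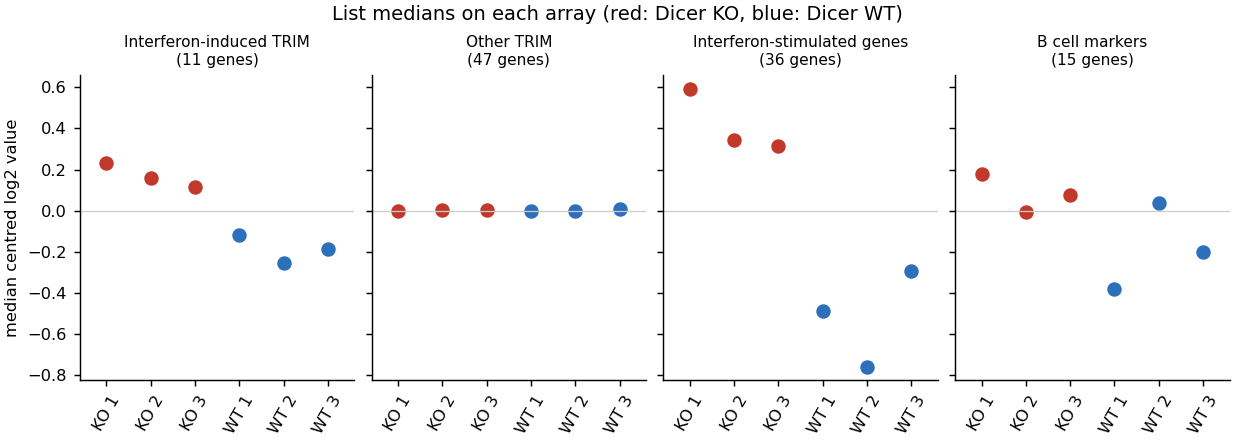
Median centred log2 value (vertical axis) on each array (horizontal axis, Dicer KO in red, Dicer WT in blue) of 4 lists. Interferon-induced TRIM genes lie between 0.11 and 0.23 on the Dicer KO arrays and -0.25 and -0.12 on the Dicer WT arrays, the other TRIM genes lie near 0 on all 6, and B cell markers are at -0.38 on Dicer WT 1 and 0.04 on Dicer WT 2.

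Genes with which Trim28 silences chromatin held 4 calls higher and 0 lower among 16 measured, beside 5.94% of all genes called higher. Their median was 0.21, while Trim28 itself was not called. With the higher level class tested alone, 4 of 10 of them were called higher, beside 25.5% of all genes of that class. Cbx5, the heterochromatin protein HP1α, differed by 0.64 ± 0.08 (SE, n = 3 per genotype) with a limma adjusted p of 0.00393, and the DNA methyltransferase Dnmt3a by 0.60 ± 0.06 (SE, n = 3 per genotype) with an adjusted p of 0.00277. The count was 2 without Dicer KO 2, Dicer WT 1 or Dicer WT 2. Of 16 genes of the microRNA machinery, 4 were called higher and 0 lower, with a median of 0.09. With the higher level class tested alone, 6 of 8 machinery genes were called higher. Ago2, the Argonaute that cuts RNA, differed by 0.88 ± 0.05 (SE, n = 3 per genotype) with a limma adjusted p of 0.000471.

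Markers of other lymph node cells were set beside the TRIM results. Over all genes 5.94% were called higher and 2.79% lower. Of 15 measured B cell markers, 13 had a positive difference and 1, Bank1, was called higher at 0.71 ± 0.11 (SE, n = 3 per genotype), with a list median of 0.22. The number called was 0 without Dicer KO 2, 4 without Dicer WT 2 and 1 without each of the other arrays. The list's medians on the arrays were 0.18, -0.01 and 0.08 in Dicer KO 1 to 3, against -0.38, 0.04 and -0.20 in Dicer WT 1 to 3, so Dicer WT 1 and Dicer WT 3 were the low arrays and Dicer WT 2 overlapped with Dicer KO. With Dicer WT 1 and Dicer WT 3 both left out, the 8 called TRIM genes differed by 0.26 to 0.75. Trim14 was then the only TRIM gene called, beside 0.963% of all genes called higher in that fit of 3 Dicer KO arrays against 1 Dicer WT array, which is assumed to vary like the others. Of 16 myeloid and dendritic cell markers 1, Lyz2, was called higher, with a list median of -0.03. Of 12 CD8 T and NK cell markers 0 were called, with a median of 0.04 and differences from -0.26 to 0.87. Among these 12, 1 was called lower without Dicer KO 1, 1 higher without Dicer KO 3 and 1 higher without Dicer WT 3. Array weights called 2 of the 12 higher and 1 lower. Of 13 measured CD4 T cell markers, 2 were called higher and 1 lower, with a median of 0.13. Cd4 differed by 0.67 ± 0.07, the adhesion molecule Cd2 by 0.57 ± 0.06 and Cd5, an inhibitor of T cell receptor signalling, by -0.44 ± 0.06 (SE, n = 3 per genotype), with limma adjusted p-values of 0.00328 for Cd4, 0.00329 for Cd2 and 0.00704 for Cd5. The table holds no levels, so no marker can be said to be at 0, and the part of such cells in the TRIM differences was not tested.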

How the data were processed

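RNA of 3 Dicer KO and 3 Dicer WT samples was measured on 1-colour arrays. The authors deposited 1 table of log values, read here as log2, with 28815 rows and 6 arrays, values from -2.59 to 3.00 and 0 missing. MAS5 appears in the submitters' processing notes without version or role. The scaling and centring steps are not stated in any label used here. The deposited values show that every row was centred on its median (largest absolute row median 5e-07). The log base is unstated, so folds assume base 2. The number of arrays limits the precision.

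Rows were named from GEO's platform annotation. Of the rows, 21780 carry 1 symbol, 1605 several and 5430 none here, and 21689 matched the RefSeq gene table of GRCm38.p6 by gene ID. Rows with several symbols were left out. Rows of 1 gene were averaged (998 genes lay on several rows). Genotypes were compared with limma 3.58.1 in R 4.3.3 (lmFit, eBayes) over all 19935 genes, with Benjamini-Hochberg adjustment over all of them and a threshold of 0.05. Unless an alternative fit is named, every adjusted p, SE and 95% interval comes from that fit. Each alternative was refitted with its own adjustment. Rows shared by several genes, and that of the TRIM pseudogene, were fitted with all rows. The fit was tested on simulated data. Labels name no batch.

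The level class requires all 6 values of a row to differ by whole multiples of the coarser binary step, within a tolerance of 1.2e-07. Promoter windows are RefSeq's, in GRCm38.p6. Protein sequences were not analysed here. Named genes are the called TRIM genes, the 4 largest differences among those not called, Trim28, Trim24, Trim33, Trim71, Trim32, Trim25, Trim21, Trim27 and Dicer1, up to 4 called genes of each other list, and Pml, Mid1, Mid2 and Mefv. Other TRIM genes are named to account for every member. The members, the lists and the rule were chosen with earlier results of these data known, so no list was tested. Alternatives changed the scaling, weights, variance prior, row choice, level class, replicate block and arrays used.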

Additional observations from a re-analysis of the deposited data

Results flagged for a closer look

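A signal appeared on an array row outside the gene-level test. The row is annotated to both H2aw, a histone gene, and Trim17, so it names no single gene and was left out of the TRIM members. It stood at 0.096, 0.24 and 0.39 on the Dicer KO arrays and -0.30, -0.33 and -0.096 on the Dicer WT arrays. All Dicer KO arrays lay above all Dicer WT arrays, with a difference of 0.48 ± 0.09 (SE, n = 3 per genotype) and a 95% interval of 0.26 to 0.71. In a limma fit of all rows the adjusted p was 0.0254, and the difference was 1.40-fold. The row cannot be split between the genes.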

How the results depend on the processing

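With 1 array left out, the TRIM genes called higher numbered 1 to 6, those called lower 0 to 0, and the family's median difference ran from 0.0248 to 0.0550. With Dicer WT 1 and Dicer WT 3 left out, the low arrays for B cell markers, 1 was called higher and the median was 0.0377. With Dicer KO 3 and Dicer WT 3 left out, 7 were called higher, beside 5.76% of all genes, and the median was 0.0390. Both of these fits were chosen after seeing the data. The fit without Dicer WT 1 and Dicer WT 3 leaves 1 Dicer WT array, so calls by list are not given for it. In it the 8 called TRIM genes differed by 0.26 to 0.75. Array weights gave 8 higher, 1 lower (Trim11, limma adjusted p 0.0411) and a median of 0.0357. Over all genes they called 8.23% higher, and 897 of 19935 lower. With the test restricted to the higher level class, 6 of 11 were called and the median was 0.290, beside 25.5% of genes called higher and a median of 0.0993 over all genes of that class. Array centring, quantile normalization, the robust prior and the row with the largest spread gave 7 or 8 higher and 0 lower. In these fits 5.78% to 6.14% of all genes were called higher. Trim56 lost its call under array centring, the robust prior and the largest-spread row.

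Differences that changed sign belonged to genes that were not called. Under array weights they were 0.0200 for Trim28, 0.0408 for Trim32 and -0.0286 for Dicer1, which quantile normalization put at -0.00361. Without Dicer WT 1 and Dicer WT 3 they were 0.0540 for Trim28, -0.113 for Trim33, 0.119 for Trim32 and -0.0392 for Mefv. Without Dicer KO 3 and Dicer WT 3 they were 0.0522 for Trim28, 0.0422 for Trim32, -0.00499 for Mid1 and -0.00234 for Mefv. With 1 array left out they ran from -0.107 to 0.0787 for Trim28, -0.127 to 0.0265 for Trim32, -0.0531 to 0.172 for Trim33, -0.0692 to 0.0800 for Dicer1, -0.0209 to 0.247 for Mid1 and -0.0205 to 0.0301 for Mefv. In all, 13 of the 58 TRIM genes changed sign with some array left out. The 8 called genes could not, since all their Dicer KO arrays lay above all their Dicer WT arrays. Among the 13 that changed sign, the widest span was that of Trim12a, from -0.298 to 0.288. The cause of these changes was not tested.

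Whether samples of the same replicate number form pairs was not tested. Deviations from the genotype means correlated at 0.27 for number 1, -0.08 for number 2 and 0.30 for number 3. Between unlike numbers the correlations ran from -0.37 to 0.23. A replicate block called 9 TRIM genes higher and 0 lower, adding Trim12c (limma adjusted p = 0.0212), and left the median at 0.0477. Over all genes it called 1407 higher and 656 lower, against 1184 and 557 without it.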

Other observations

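Array rows shared by several TRIM genes, or annotated to a TRIM pseudogene, entered no comparison above. Their values come from a limma fit of all rows. The row annotated to Trim5, Trim12c and Trim12a stood at 0.33, -0.037 and -0.30 on the Dicer KO arrays and 0.18, 0.037 and -0.85 on the Dicer WT arrays. The row annotated to Trim5 and Trim12c stood at 0.31, 0.022 and -0.25 on the Dicer KO arrays and 0.22, -0.022 and -0.89 on the Dicer WT arrays. On both, Dicer WT 3 was far below every other array, Dicer KO 3 was the lowest of its genotype, and the genotypes overlapped, as they did for Trim12a. Their differences were 0.21 ± 0.29 and 0.26 ± 0.29 (SE, n = 3 per genotype), with limma adjusted p-values of 0.786 and 0.718.

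The row of Trim30b, shared with a gene model, differed by -0.03 ± 0.08, that of the pseudogene Trim30e-ps1 by -0.08 ± 0.08, and that shared by Trim60 and Trim61 by 0.02 ± 0.05, all with overlapping genotypes and limma adjusted p-values from 0.712 to 0.910. The row shared by Trim43a, Trim43b and Trim43c had all Dicer KO arrays below all Dicer WT arrays, with a difference of -0.15 ± 0.05 and an adjusted p of 0.133.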
